A study of Homo sapiens and Mus musculus with 16 samples.

Results

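HOX genes encode homeodomain transcription factors, and in human and mouse they lie in the clusters HOXA, HOXB, HOXC and HOXD. Rows whose symbol is HOX or Hox followed by a cluster letter and a number were taken from the expression tables of both cell lines. They came to 80 of 112509 gene rows, 40 gene IDs under 39 symbols in each line. HOXC5 in human and Hoxd4 in mouse each had a pair of IDs, which are kept apart by ID. MDA-MB-231 comes from a human breast cancer of the triple-negative kind, and CT26 from a mouse colon carcinoma. Either line gave 4 libraries of cells whose PD-L1 gene was knocked out by lentivirus-delivered CRISPR (PD-L1 KO) and 4 libraries of PD-L1 wild type cells (PD-L1 WT), 16 libraries in all. CD274 (Cd274 in mouse) encodes PD-L1, which binds PD-1 on T cells. All groups were cultured cells with no further treatment named, grown in DMEM (MDA-MB-231) or RPMI 1640 (CT26) with serum and antibiotics. The labels name neither a clone nor a pool for the KO cells, no control virus for the WT cells, and no separate cultures within a group. Each p-value thus reflects how far these libraries spread, and that spread may be technical.

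HOX genes are numbered 1 to 13 by paralog group, the copies of a gene in the different clusters. Within a cluster the low numbers stand at the end that is expressed early and anteriorly in the embryo, and the high numbers at the end used late and posteriorly. Retinoic acid, CDX factors and Trithorax complexes are known to promote HOX transcription, Polycomb complexes hold silent parts of a cluster shut, and PBX and MEIS proteins bind DNA together with HOX proteins. Cultured cells usually keep part of the HOX pattern of the tissue they came from.

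Depth was lower in the PD-L1 KO libraries of MDA-MB-231, at 0.509 to 0.779 of WT replicate 1, against 0.941 to 1.21 in PD-L1 WT libraries. In CT26 it was 0.926 to 2.49 in KO and 0.799 to 1.14 in WT libraries. The targeted transcript averaged 10.6 ± 1.91 FPKM in MDA-MB-231 KO and 12.2 ± 0.670 FPKM in WT libraries (SD, n = 4 each), a log2 fold change of -0.20 that did not pass (limma adjusted p = 0.166), so it does not check the MDA-MB-231 labels. It averaged 0.526 ± 0.0552 FPKM in CT26 KO and 1.41 ± 0.127 FPKM in WT libraries (log2 fold change -0.66, limma adjusted p = 1.42e-04). FPKM are fragments per kilobase of transcript, scaled to the mapped fragments of the library, so levels of different genes are compared per length. ESR1 and PGR, the hormone receptor genes that a triple-negative line lacks, stayed at or below 0.130 FPKM in all 8 MDA-MB-231 libraries. Of the same list of luminal and receptor markers, ERBB2 averaged 17.8 FPKM in KO and 24.6 FPKM in WT libraries. KRT8, KRT18, EPCAM and GATA3 averaged 3.76 FPKM or more in both groups. CDH1 averaged 0.311 FPKM in KO and 4.15 FPKM in WT libraries, and FOXA1 2.67 FPKM in KO and 0.00688 FPKM in WT libraries. Of the colon epithelium markers, Muc2 and Epcam were listed at 0 in all 8 CT26 libraries and Gpa33, Lgr5, Cdx1 and Vil1 stayed at or below 0.181 FPKM, while Krt20 averaged 10.4 FPKM in KO and 1.78 FPKM in WT libraries and Cdh17 0.810 FPKM in KO and 0.474 FPKM in WT libraries.

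In MDA-MB-231 several HOX genes in the middle of the clusters were higher in the KO. HOXD4 and HOXB3 passed the test among genes with adequate levels. HOXC6 passed it too, but entered it through its KO libraries alone. HOXC10, HOXC5, HOXC8, HOXB6, HOXB5 and HOXB4 passed in a fit that also held low genes. HOXD1 and HOXA13, at opposite ends of the numbering, were lower. The most abundant HOX gene of the WT cells, HOXB9, did not pass. Of the 40 gene IDs, 24 were above 0 in at least 1 library and 16 were at 0 in all 8, among them HOXA3 to HOXA6, HOXA11, HOXB1, HOXB13, HOXC11, HOXC12, HOXD8 to HOXD10, HOXD12 and HOXD13. In bulk RNA, more cells that express a gene and more RNA of it per cell cannot be told apart.

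The main fit used limma on log2(FPKM + 1) over the genes with at least 1 FPKM in at least 4 of the 8 libraries, and 6 HOX genes entered it. Of these, 3 were higher and 1 was lower in the KO at an adjusted p below 0.05, while 42.6% of all 14450 genes tested were higher and 25.7% were lower. So 3 of 6 is close to the background. After upper-quartile scaling the all-gene calls were 4736 higher and 4851 lower, where they were 6149 higher and 3711 lower as deposited, and the same 3 HOX genes were higher. HOXC6 reached 1 FPKM in KO libraries alone, so it could enter the fit only by being higher there. The fit without the filter held every gene above 0 in at least 1 library, 31429 in all, and there 10 of the 24 HOX gene IDs were higher, 1 was lower and 13 did not pass. Among all genes of that fit 20.6% were higher and 14.8% lower. The KO libraries all lay above the WT libraries in 10 HOX gene IDs and all below in 2, beside 20.5% and 14.9% of all genes. For each of these 12 the two-sided exact permutation test gave p = 0.0286, the smallest that its 70 assignments allow. Groups of 4 that do not overlap always give that value, so it adds nothing to the separation itself. Within the range of 0.1 to below 1 FPKM averaged over the 8 libraries lay 13 HOX gene IDs, of which 7 were higher and 1 lower. For all 7801 genes in that range the shares were 9.5% and 14%. The authors' deposited table gives q-values of 1.5e-04 to 0.0465 to HOXB3, HOXB6, both IDs of HOXC5, HOXC6, HOXC8, HOXC10, HOXD1 and HOXD4, and marks HOXA13, HOXB4 and HOXB5 as not tested. No test was made of the HOX genes as a group, since they were chosen with results of these data known.

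**Figure D1:**
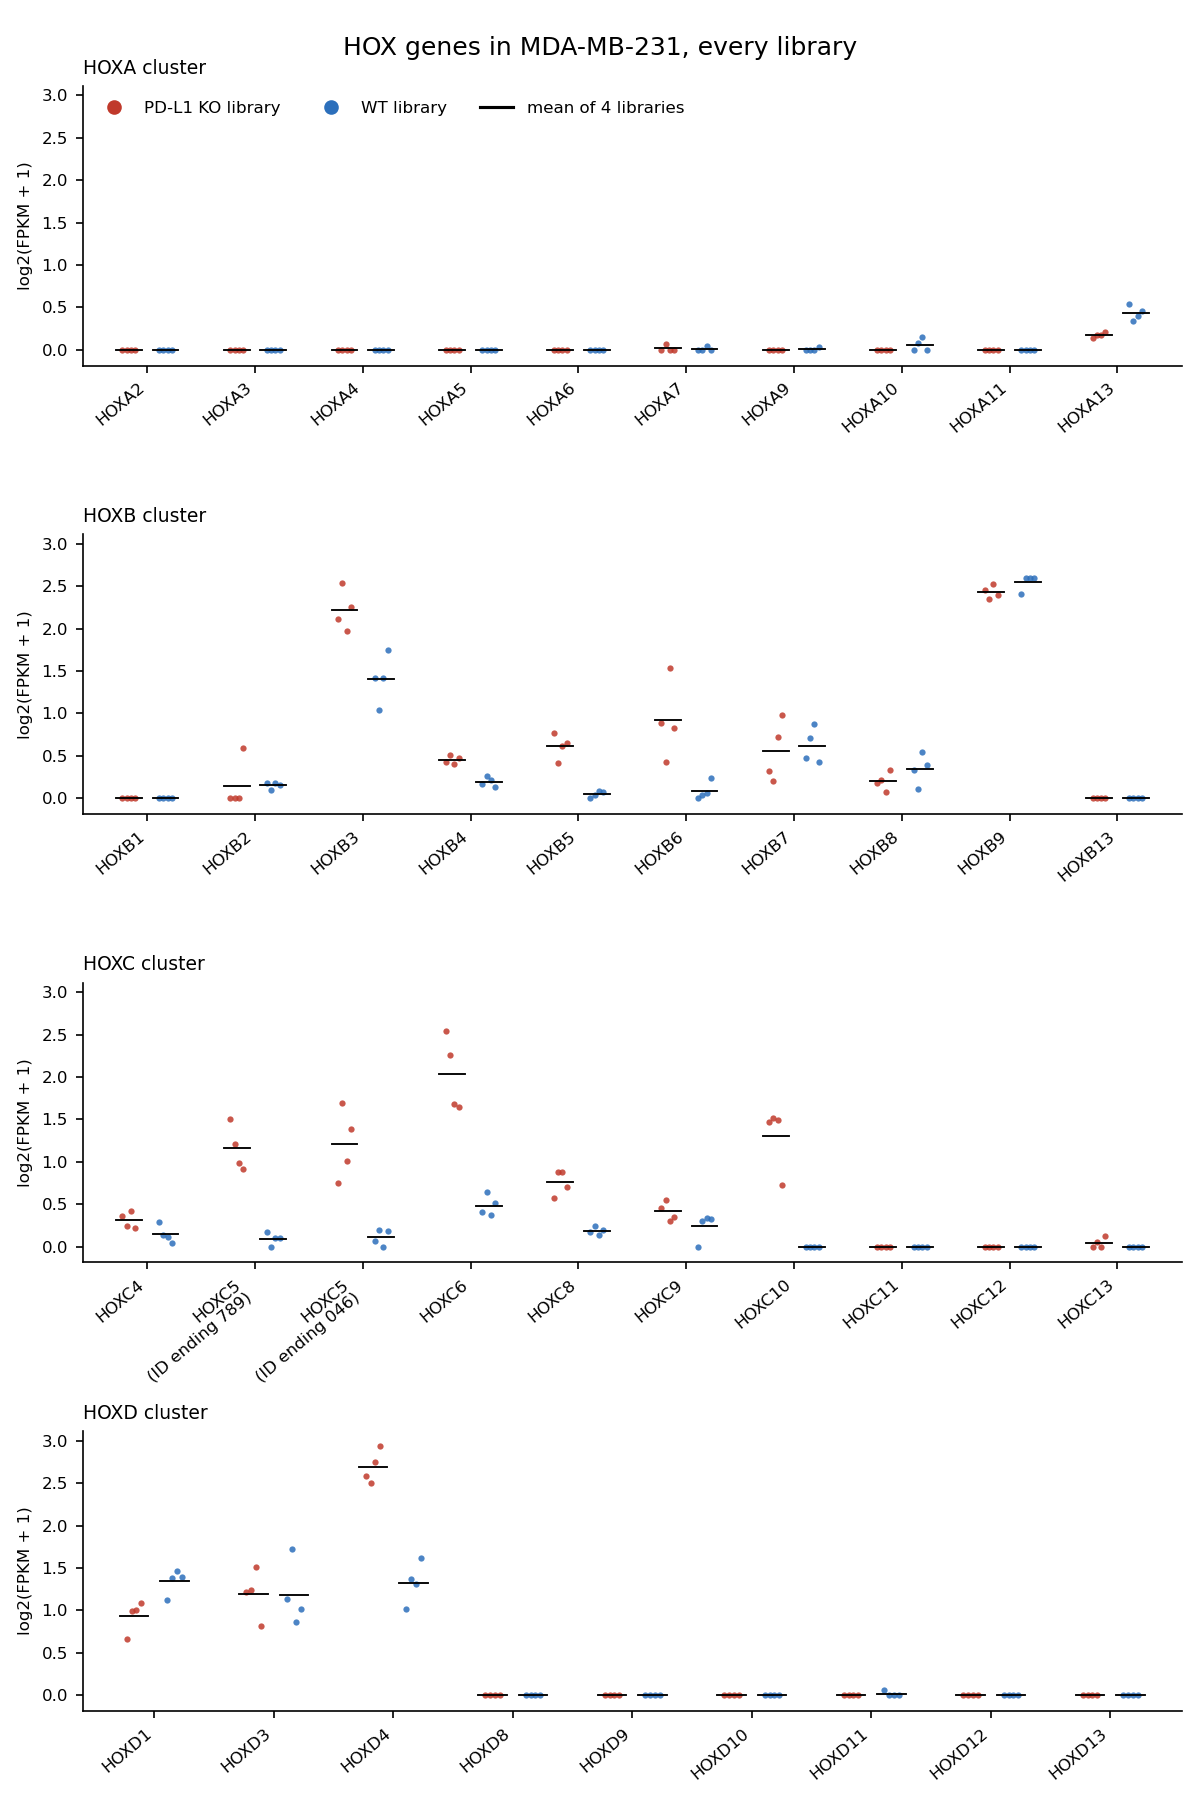
Level of the HOX genes in MDA-MB-231 as log2(FPKM + 1), by cluster and paralog number, with PD-L1 KO libraries left of PD-L1 WT libraries. Points are libraries (4 per group) and bars their means. HOXC10 lies at 0 in every WT library, HOXC6 and HOXD4 are separated between the groups, HOXB9 overlaps, and most of HOXA is at 0.

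The sequence before the starts of HOXD1 and HOXD3, both of the HOXD cluster, is shown. In the main fit of MDA-MB-231 HOXD1 was lower in the KO (log2 fold change -0.41, SE 0.128). That call was lost without the filter and without WT replicate 3. HOXD3 did not pass (0.01, SE 0.214), and whether the responses of HOXD1 and HOXD3 differ was not tested. The sequences are from RefSeq on GRCh38.p14, plus strand, 5′ to 3′. The HOXD1 window, chr2:176188418-176188578, ends where the GENCODE 29 exon of HOXD1 starts, 89 bases before the RefSeq start, and GENCODE places exons of the antisense noncoding gene HAGLR in it on the opposite strand. The HOXD3 window, chr2:176157057-176157306, is the 250 bases before the RefSeq start and lies between GENCODE exons, inside the annotated span of HOXD3. Capitals mark GGGCGG, the GC box, and CCAAT, on either strand.
HOXD1: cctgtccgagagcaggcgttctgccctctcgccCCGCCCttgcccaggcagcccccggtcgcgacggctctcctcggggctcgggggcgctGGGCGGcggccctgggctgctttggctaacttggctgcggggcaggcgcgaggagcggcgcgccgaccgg
HOXD3: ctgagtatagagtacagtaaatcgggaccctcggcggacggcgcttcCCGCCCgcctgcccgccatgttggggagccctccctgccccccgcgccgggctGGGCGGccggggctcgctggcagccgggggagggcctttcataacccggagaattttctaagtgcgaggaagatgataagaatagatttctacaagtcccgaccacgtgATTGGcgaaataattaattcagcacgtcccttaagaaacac
Each window held GGGCGG at 2 places, once per strand, and HOXD3 also held CCAAT once, on the minus strand. TATAAA, TGATTNAT and AGGTCA were searched on both strands and had no match. GGGCGG occurs in 27.8% of 35116 RefSeq promoter windows cut like that of HOXD1 and in 42.6% of those cut like that of HOXD3, where CCAAT occurs in 32%. Each window held 21 CG dinucleotides, beside a median of 6 in windows cut like that of HOXD1 and of 11 in those cut like that of HOXD3. The table holds promoters for 20 of the 39 human HOX symbols, and those of HOXD4 and HOXC5 are not printed because they lie within exons of coding genes in GENCODE. These matches describe the letters only.

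Of the 10 gene IDs that rose without the filter, 5 belong to HOXC, 4 to HOXB and 1 to HOXD. HOXC6, a mid-cluster gene that is expressed in the mammary gland, read 4.81, 3.78, 2.22 and 2.13 FPKM in the KO libraries, against 0.323, 0.562, 0.297 and 0.425 FPKM in the WT libraries. The lowest KO library was above the highest WT library, and KO replicates 1 and 2 stood above KO replicates 3 and 4. The mean was 3.23 ± 1.29 FPKM in KO and 0.402 ± 0.121 FPKM in WT libraries (SD, n = 4 each), a ratio of 8.04 (log2 fold change 1.55 on the log2(FPKM + 1) scale, SE 0.206, limma adjusted p = 1.54e-04). HOXC6 met the filter of that fit only through the KO libraries, and without the filter limma's adjusted p was 8.63e-04. HOXC10, a posterior gene of the hindlimb and lumbar region, read 1.76, 1.86, 1.83 and 0.654 FPKM in the KO libraries and was listed at 0 in all 4 WT libraries. The WT libraries were the deeper ones. Since WT is listed at 0, no fold is given. In the fit without the filter limma's adjusted p was 6.95e-04, and the authors' deposited table gives a q-value of 9.38e-04.

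Both IDs of HOXC5 rose. The protein-coding ID ENSG00000172789 read 1.85, 1.32, 0.987 and 0.887 FPKM in KO libraries, against 0.129, 0, 0.0709 and 0.0705 FPKM in WT libraries. The processed transcript ENSG00000273046 read 0.683, 2.25, 1.01 and 1.62 FPKM in KO libraries, against 0.0457, 0.149, 0 and 0.134 FPKM in WT libraries. The groups did not overlap for either ID, and the order of the KO libraries was not the same in the 2 IDs. In the fit without the filter their log2 fold changes were 1.07 (SE 0.136, limma adjusted p = 4.36e-04) and 1.10 (SE 0.200, limma adjusted p = 0.00304). These are on the log2(FPKM + 1) scale, which understates low genes, and the ratios of means were 18.7 and 16.9. Their spans overlap each other and that of HOXC4, so reads can be shared between them. HOXC8, a thoracic-level gene, averaged 0.696 ± 0.172 FPKM in KO and 0.138 ± 0.0343 FPKM in WT libraries (SD, n = 4 each), a ratio of 5.05. HOXC8 also rose (log2 fold change 0.57 on the log2(FPKM + 1) scale, limma adjusted p = 8.89e-04 without the filter). HOXC4 averaged 0.242 FPKM in KO and 0.107 FPKM in WT libraries, and HOXC9 0.336 FPKM in KO and 0.188 FPKM in WT libraries. Neither passed, and their groups overlapped. HOXC13, which regulates hair keratin genes, did not exceed 0.0945 FPKM in any library.

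In HOXD the change was uneven. HOXD4, next to HOXD3 in the cluster, read 4.99, 4.67, 5.72 and 6.65 FPKM in KO libraries, against 1.02, 1.57, 1.48 and 2.07 FPKM in WT libraries. Every KO library was more than 2 FPKM above every WT library. The means were 5.51 ± 0.878 FPKM in KO and 1.54 ± 0.432 FPKM in WT libraries (SD, n = 4 each), a ratio of 3.58 (log2 fold change 1.37, SE 0.151, limma adjusted p = 4.65e-05). HOXD4 was the most abundant HOX gene of the KO libraries by mean. HOXD1, the most anterior gene of its cluster, read 0.580, 0.992, 0.999 and 1.13 FPKM in KO libraries, against 1.18, 1.61, 1.75 and 1.63 FPKM in WT libraries. The groups did not overlap, but the highest KO library lay just under the lowest WT library. Its log2 fold change was -0.41 (SE 0.128, limma adjusted p = 0.0199). The adjusted p was 0.0620 in the fit without the filter and 0.0546 without WT replicate 3, so the call for HOXD1 was lost in both.

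HOXD3 overlapped between the groups, at 1.33, 1.37, 1.86 and 0.756 FPKM in KO libraries, against 1.20, 2.31, 0.819 and 1.03 FPKM in WT libraries. Its log2 fold change of 0.01 (SE 0.214, limma adjusted p = 0.963) leaves room for changes in either direction, since the spread within each group was large. HOXD3 spans HOXD4 in GENCODE 29, so part of the reads of these genes may have been split between them by the authors' estimate. HAGLR, the antisense noncoding gene that starts beside HOXD1, averaged 4.45 ± 1.19 FPKM in KO and 5.67 ± 1.46 FPKM in WT libraries (SD, n = 4 each) and did not pass (log2 fold change -0.29, limma adjusted p = 0.218). Reads of HOXD1 and HAGLR overlap in position and are separable by strand alone, and no source used here says whether strand was used. HOXD11 did not exceed 0.0402 FPKM in any library.

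HOXB split into a part that rose and a part that did not. HOXB3, which helps pattern the hindbrain, read 3.33, 4.82, 2.93 and 3.76 FPKM in KO libraries, against 1.67, 1.06, 1.68 and 2.37 FPKM in WT libraries. The groups stood apart, with KO replicate 3 and WT replicate 4 nearest to each other. The log2 fold change was 0.81 (SE 0.176, limma adjusted p = 0.00292) and the ratio of means 2.19. Among low genes, HOXB6 averaged 0.965 ± 0.665 FPKM in KO and 0.0627 ± 0.0809 FPKM in WT libraries, and HOXB5 0.536 ± 0.154 FPKM in KO and 0.0343 ± 0.0279 FPKM in WT libraries (SD, n = 4 each). HOXB4, known for expanding blood stem cells, averaged 0.368 ± 0.0423 FPKM in KO and 0.142 ± 0.0454 FPKM in WT libraries. All 3 rose in the fit without the filter (limma adjusted p = 0.0177 for HOXB6, 5.87e-04 for HOXB5 and 0.00295 for HOXB4), and the call for HOXB6 was lost when WT replicate 1, 2 or 3 was left out.

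The remaining HOXB genes overlapped between the groups. HOXB9, a posterior gene known to be expressed in breast cancers, read 4.47, 4.10, 4.76 and 4.28 FPKM in KO libraries, against 4.31, 5.06, 5.03 and 5.04 FPKM in WT libraries. WT replicate 1 fell among the KO libraries. Its log2 fold change was -0.12 (SE 0.0856, limma adjusted p = 0.253); relative to the median gene of these libraries, which stood at 0.18, it was lower, and after upper-quartile scaling it passed at -0.30 (limma adjusted p = 0.0127). HOXB7 averaged 0.508 FPKM in KO and 0.550 FPKM in WT libraries, HOXB8 0.151 FPKM in KO and 0.280 FPKM in WT libraries and HOXB2 0.125 FPKM in KO and 0.110 FPKM in WT libraries, with no call. HOXB2 rests on KO replicate 4, the only KO library above 0.

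HOXA was almost silent in MDA-MB-231. HOXA13, which patterns the digits and the urogenital tract, carried 91.5% of the cluster's summed FPKM in KO and 86.2% in WT libraries. It read 0.102, 0.132, 0.132 and 0.157 FPKM in KO libraries, against 0.455, 0.265, 0.318 and 0.374 FPKM in WT libraries. The groups did not overlap, and the ratio of means was 0.37. The fall passed in the fit without the filter (log2 fold change -0.26 on the log2(FPKM + 1) scale, SE 0.0522, limma adjusted p = 0.00538). HOTTIP, the noncoding gene that overlaps HOXA13 on the opposite strand, was listed at 0 in all 4 KO libraries and at 0.0834 to 0.175 FPKM in WT libraries. HOXA7, HOXA9 and HOXA10 stayed at or below 0.110 FPKM in every library.

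Rank order shows how far the set of HOX genes differed. Over the 19 HOX gene IDs of MDA-MB-231 that averaged 0.1 FPKM or more in either group, Spearman's rho between a KO and a WT library was 0.128 to 0.565, with a median of 0.372. Between KO libraries it was 0.788 to 0.916 and between WT libraries 0.804 to 0.881. So any pair of libraries of the same group ranked these genes more alike than any pair across the groups. In CT26, over 22 gene IDs, rho across the groups was 0.904 to 0.981 with a median of 0.951, within the KO libraries 0.945 to 0.972 and within the WT libraries 0.939 to 0.978. There the ranges overlapped. These correlations are across genes that share libraries, and genes are not replicates. The choice by either group lets in genes that reach 0.1 FPKM in 1 group alone. No rho was taken over other genes of like level, so whether HOX genes differ from them in this is not known. At a group mean of 0.1 FPKM or more, 14 human HOX gene IDs were detected in both groups and 5 in the KO alone (HOXB5, HOXB6, both IDs of HOXC5, and HOXC10), and 0 in the WT alone. Of all genes above 0 in at least 1 library, 6.67% reached that level in the KO alone and 8.94% in the WT alone. At 1 FPKM 4 were detected in both groups, 4 in the KO alone (both IDs of HOXC5, HOXC6 and HOXC10) and HOXD1 in the WT alone, beside 3.89% and 4.76% of all genes. In CT26 21 were detected at 0.1 FPKM in both and Hoxd3 in the KO alone, and at 1 FPKM 10 in both, Hoxa3 in the KO alone and Hoxc5 in the WT alone. Of all CT26 genes above 0 in at least 1 library, 5% reached 0.1 FPKM in the KO alone and 3.82% in the WT alone. At 1 FPKM these shares were 2.09% and 1.65%.

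**Figure D2:**
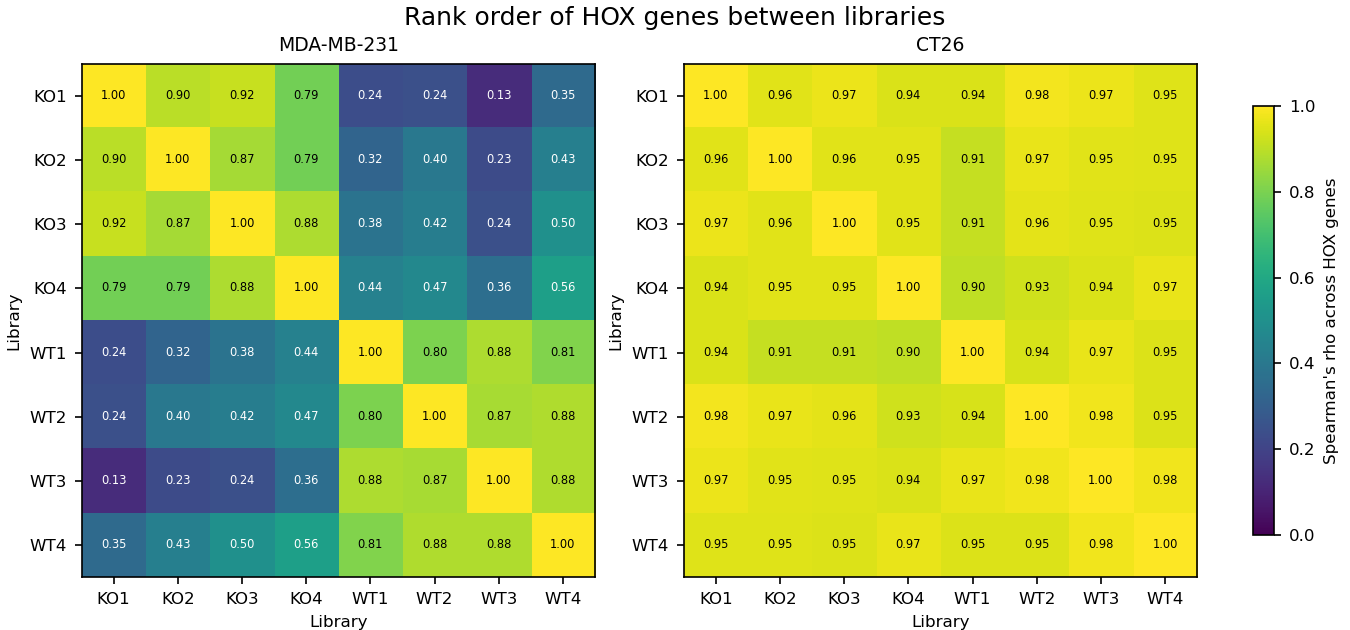
Spearman's rho between libraries across HOX genes that averaged 0.1 FPKM or more in either group, for MDA-MB-231 (19 gene IDs) and CT26 (22 gene IDs), with PD-L1 KO libraries before PD-L1 WT libraries. In MDA-MB-231 the KO against WT block lies between 0.128 and 0.565, and in CT26 between 0.904 and 0.981.

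Summed over its members, HOXC reached 8.72 ± 2.09 FPKM in MDA-MB-231 KO and 0.984 ± 0.194 FPKM in WT libraries (SD, n = 4 each), a ratio of 8.86. HOXB summed to 10.8 ± 0.672 FPKM in KO and 7.73 ± 0.841 FPKM in WT libraries. HOXD summed to 7.76 ± 0.920 FPKM in KO and 4.43 ± 0.889 FPKM in WT libraries, and HOXA to 0.143 ± 0.0333 FPKM in KO and 0.409 ± 0.0628 FPKM in WT libraries. KO and WT libraries did not overlap in any of these 4 sums. By position, paralog groups 4 to 8 summed to 14.9 ± 0.415 FPKM in KO and 3.41 ± 0.536 FPKM in WT libraries, a ratio of 4.36. Groups 1 to 3 had a ratio of 1.30 and groups 9 to 13 a ratio of 1.18. Of the 10 gene IDs called higher without the filter, 8 belong to groups 4 to 8, both IDs of HOXC5 among them, with HOXB3 and HOXC10 outside. Groups 4 to 8 hold 12 of the 24 gene IDs above 0, groups 1 to 3 hold 4 and groups 9 to 13 hold 8. HOXD4 held 71% of the summed FPKM of its cluster in KO libraries, while in WT libraries the means of HOXD1 and HOXD4 were alike, at 1.54 FPKM.

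**Figure D3:**
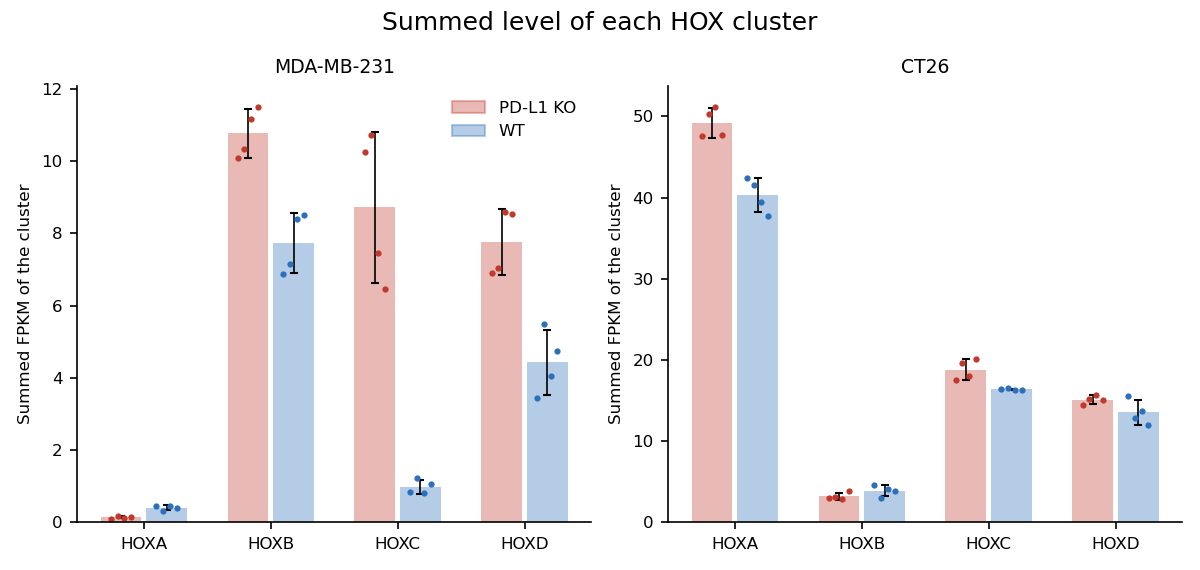
Summed FPKM of the members of each HOX cluster in MDA-MB-231 and CT26, with PD-L1 KO left of PD-L1 WT. Bars are means, error bars SD and points the 4 libraries of a group; the axes of the lines are separate. HOXC in MDA-MB-231 averages 8.72 in KO and 0.984 in WT libraries, while the CT26 clusters differ by ratios of 0.820 to 1.22.

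The deposited tables give a shared locus to genes whose annotation overlaps, so the calls are also given by locus. HOXB2 to HOXB6 share chr17:48540894-48606414 (hg38), where 4 of 5 gene IDs were higher without the filter, and HOXB7 to HOXB9 share chr17:48607227-48634932, where 0 of 3 were, with adjusted p of 0.315 to 0.828. HOXC4 to HOXC10, 7 gene IDs, share chr12:53981509-54056030, and 5 were higher. HOXD1, HOXD3, HOXD4, HOXD8 and HOXD9 share chr2:176121611-176192538, and 1 was higher. In GENCODE 29 HOXB3 spans HOXB4, HOXB5 and part of HOXB6, and HOXC6 spans HOXC8 and HOXC9 and overlaps HOXC4 and the processed transcript of HOXC5, so the values within a locus are estimates from reads that can fit more than 1 gene, and its members are not independent. HOXC10 and HOXA13 overlap no other HOX gene, and HOXB7 spans HOXB9.

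The CT26 KO changed its HOX pattern little. Hoxa7, Hoxa9, Hoxa10 and Hoxc6 rose by ratios of 1.20 to 1.41, and these include the most abundant Hox genes of the line. No Hox gene passed as lower in limma. In the fit with the filter 4 of 11 Hox gene IDs were higher, 0 lower and 7 not past the threshold, while 22.3% of all 11341 genes tested were higher and 33.4% lower. After upper-quartile scaling the all-gene calls were 3313 higher and 2841 lower, where they were 2534 higher and 3793 lower as deposited, and the same 4 Hox genes were higher and 0 lower. At an unadjusted limma p below 0.05 also 0 were lower, and 0 had KO libraries all below the WT libraries. Without the filter, 4 of the 30 gene IDs above 0 were higher and 0 lower (1 lower at an unadjusted p), against 11.3% and 15.1% of all 23931 genes in that fit. KO libraries all lay above WT libraries in 4 gene IDs and all below in 0, beside 12% and 16.2% of all genes. Of the 11 gene IDs that averaged 0.1 to below 1 FPKM, 0 were higher and 0 lower, beside 10% and 5.93% of all genes in that range. The other 10 gene IDs were at 0 in all 8 libraries. The authors' deposited table gives q-values of 2.14e-04 to 0.028 to the 4 higher genes and of 0.00386 to Hoxc4, and of 0.0996 to 0.772 to the other Hox genes it tested. Hoxc4, named here after its values were seen, read 0.751, 0.389, 0.714 and 0.314 FPKM in KO libraries, against 0.928, 0.735, 0.984 and 0.836 FPKM in WT libraries. KO replicate 1 lay above WT replicate 2, and in the fit without the filter Hoxc4 did not pass (log2 fold change -0.29, SE 0.11, limma adjusted p = 0.101).

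Hoxa9, a posterior gene best known as a driver of leukaemia, read 27.6, 28.4, 29.3 and 27.4 FPKM in KO libraries, against 24.2, 24.9, 22.5 and 22.4 FPKM in WT libraries. It was the most abundant Hox gene of CT26, the groups were apart, and the means of 28.2 ± 0.852 FPKM in KO and 23.5 ± 1.24 FPKM in WT libraries (SD, n = 4 each) gave a ratio of 1.20 (log2 fold change 0.25, SE 0.0459, limma adjusted p = 0.00171). Hoxa10, which is needed for uterine development, read 8.57, 8.85, 8.57 and 8.11 FPKM in KO libraries, against 7.34, 6.25, 6.22 and 6.03 FPKM in WT libraries (log2 fold change 0.35, SE 0.0651, limma adjusted p = 0.00185). WT replicate 1 was nearest to the KO libraries. Hoxa7 read 3.38, 3.67, 3.88 and 3.96 FPKM in KO libraries, against 2.48, 2.499, 3.02 and 2.54 FPKM in WT libraries (log2 fold change 0.38, SE 0.0740, limma adjusted p = 0.00259). Hoxc6 read 16.1, 18.3, 16.02 and 18.9 FPKM in KO libraries, against 14.04, 15.1, 14.4 and 14.2 FPKM in WT libraries (log2 fold change 0.25, SE 0.0632, limma adjusted p = 0.0104). In all 4 genes the KO libraries lay above the WT libraries, by ratios of means of 1.20 to 1.41. They come from separate deposited loci.

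The other tested Hox genes of CT26 overlapped between the groups. Hoxd8, the top gene of its cluster, read 11.0, 12.2, 11.6 and 11.2 FPKM in KO libraries, against 12.03, 10.6, 11.6 and 10.05 FPKM in WT libraries (log2 fold change 0.05, SE 0.0646, limma adjusted p = 0.527). Hoxb9, the top gene of Hoxb, read 1.32, 1.40, 1.55 and 2.06 FPKM in KO libraries, against 2.05, 1.41, 1.93 and 2.02 FPKM in WT libraries (log2 fold change -0.14, SE 0.117, limma adjusted p = 0.323). Hoxa5 averaged 3.73 FPKM in KO and 3.21 FPKM in WT libraries, and Hoxa6 2.12 FPKM in KO and 1.90 FPKM in WT libraries. Without WT replicate 1, Hoxa5 passed (log2 fold change 0.26, limma adjusted p = 0.0121), as did Hoxd4 ENSMUSG00000101174 (0.53, limma adjusted p = 0.0152), which averaged 2.79 ± 0.593 FPKM in KO and 2.08 ± 0.945 FPKM in WT libraries (SD, n = 4 each). All 8 Hoxb genes above 0 had KO means at or below 1.58 FPKM, and none of these 8 passed. By cluster, Hoxa summed to 49.2 FPKM in KO and 40.3 FPKM in WT libraries, and Hoxc to 18.8 FPKM in KO and 16.4 FPKM in WT libraries, with no overlap of the groups. Hoxd summed to 15.1 FPKM in KO and 13.5 FPKM in WT libraries and Hoxb to 3.20 FPKM in KO and 3.90 FPKM in WT libraries, both with overlap.

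**Figure D4:**
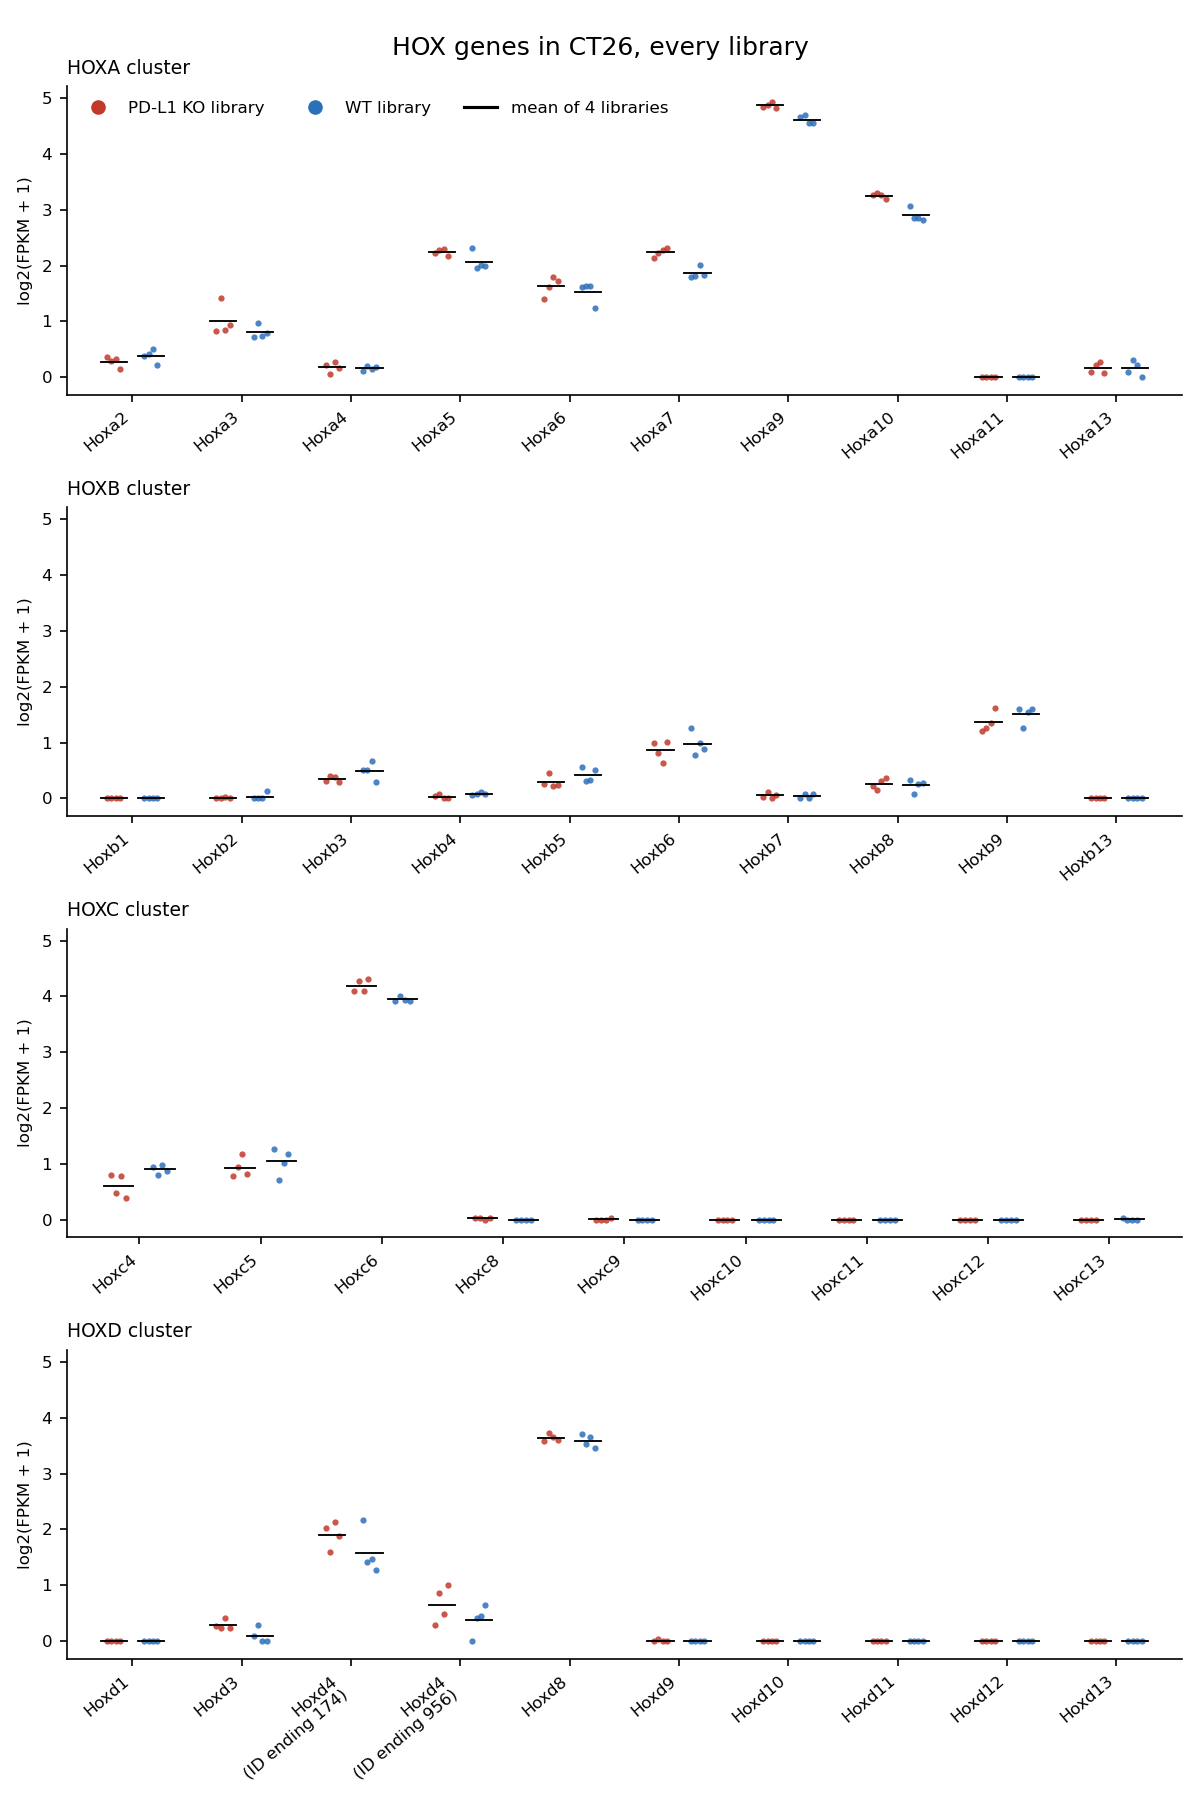
Level of the Hox genes in CT26 as log2(FPKM + 1), by cluster and paralog number, with PD-L1 KO libraries left of PD-L1 WT libraries. Points are libraries (4 per group) and bars their means. Hoxa9, Hoxa10, Hoxa7 and Hoxc6 stand slightly higher in every KO library, and the other genes shown overlap between the groups.

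Genes with the same symbol could be compared between the lines where they were tested in both, which held for HOXB9, HOXC6 and HOXD4 among 8666 pairs. The difference between the KO responses, MDA-MB-231 minus CT26, was 1.30 for HOXC6 (SE 0.217) and 1.03 for HOXD4 (SE 0.254) on the log2 scale. Against a 2-fold difference in limma's treat these had adjusted p = 0.533 and 1, so 0 of 3 were called, where 11.7% of all pairs were called at an adjusted p below 0.05. At an unadjusted p below 0.05 also 0 of 3 passed. In the test of any difference HOXC6 (limma adjusted p = 4.23e-05) and HOXD4 (limma adjusted p = 0.00154) passed, and there 72.2% of all pairs did. HOXC6 entered both tests only through its MDA-MB-231 KO libraries, so a higher level there was a condition of entry. Its result also depends on the scale. At a pseudocount of 0.1 it was called against a 2-fold difference (2.42, adjusted p = 0.00142 in limma's treat). HOXB9 differed by 0.03 (SE 0.142, limma adjusted p = 0.869). 

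**Figure D5:**
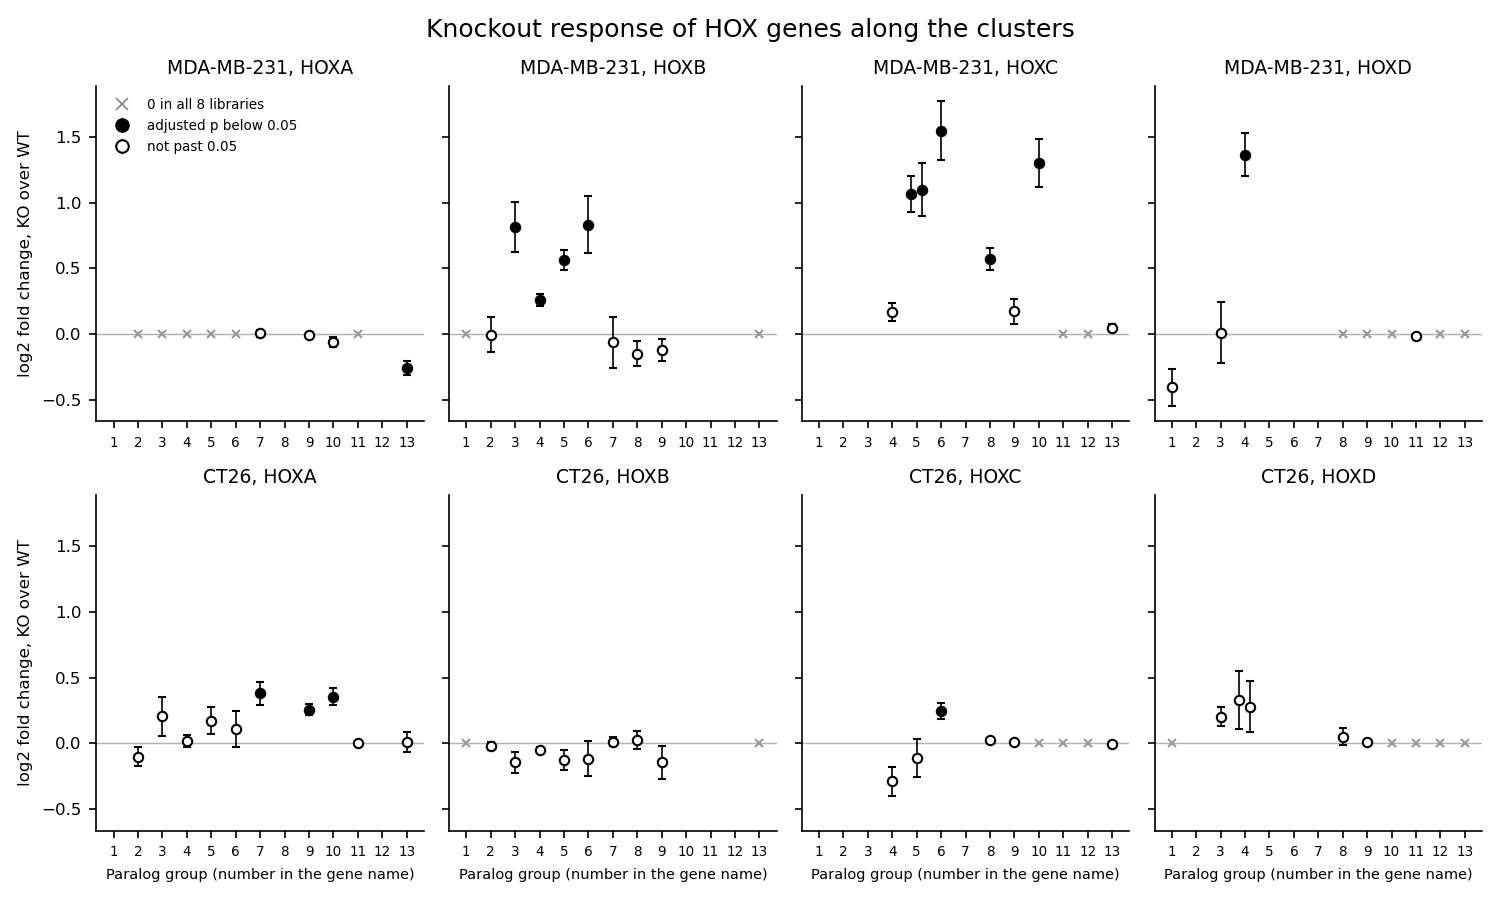
Log2 fold change of PD-L1 KO over PD-L1 WT on log2(FPKM + 1), in the fit without the filter, for HOX genes by paralog group, with MDA-MB-231 above CT26. Error bars are SE, filled points passed an adjusted p of 0.05 (HOXD1 passed in the fit with the filter) and crosses mark genes at 0 in all 8 libraries. In MDA-MB-231 8 of the 10 rises lie in paralog groups 4 to 8, which hold 12 of the 24 gene IDs above 0, and in CT26 the 4 rises are all below 0.4.

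Some genes known to act with HOX proteins also differed. Of the TALE cofactors, homeodomain proteins that bind DNA beside HOX proteins or compete with such partners, 9 were tested in MDA-MB-231, of which 3 were higher, 5 lower and 1 not past the threshold, with a median log2 fold change of -0.52 beside 0.18 over all genes. Of all genes tested there, 42.6% were higher and 25.7% lower. PBX4, a PBX family member, averaged 0.975 ± 0.282 FPKM in KO and 12.5 ± 1.17 FPKM in WT libraries (SD, n = 4 each; log2 fold change -2.78, limma adjusted p = 1.95e-07), and TGIF1, a TALE repressor, 11.4 ± 0.762 FPKM in KO and 62.4 ± 2.55 FPKM in WT libraries (log2 fold change -2.35, limma adjusted p = 8.71e-09). PBX4 and TGIF1 thus fell while HOXC and mid-cluster HOXB and HOXD genes rose, but other cofactors rose too. The 3 higher ones were TGIF2 (log2 fold change 0.97, limma adjusted p = 3.99e-06), MEIS2 (0.91, limma adjusted p = 7.92e-04) and PKNOX1 (0.44, limma adjusted p = 0.00637). TGIF2, MEIS2 and PKNOX1 are named here after their values were seen. In CT26, of 8 tested, 2 were higher and 1 lower with a median of 0.00 beside -0.06, where 22.3% of all were higher and 33.4% lower. Meis2 rose there (log2 fold change 0.33, limma adjusted p = 0.0156), and Tgif1 fell (-0.16, limma adjusted p = 0.0208).

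Of the Polycomb genes 12 of 26 were higher and 2 lower in MDA-MB-231 (median log2 fold change 0.26 beside 0.18 over all genes), where 42.6% of all genes tested were higher and 25.7% lower. In CT26 3 of 26 were higher and 11 lower (median -0.15 beside -0.06), where 22.3% of all were higher and 33.4% lower. The share of higher genes in MDA-MB-231 is thus near the background. PHC1, a subunit of the complex PRC1, averaged 24.0 ± 0.694 FPKM in MDA-MB-231 KO and 2.96 ± 0.193 FPKM in WT libraries (SD, n = 4 each; log2 fold change 2.66, limma adjusted p = 8.12e-09). PCGF6, another PRC1 subunit, rose (0.95, limma adjusted p = 1.20e-06), and PHF1, an accessory subunit of PRC2, fell (-1.25, limma adjusted p = 3.71e-07). In CT26 Pcgf5 (-1.07, limma adjusted p = 1.19e-06) and Pcgf6 (-0.48, limma adjusted p = 7.15e-05) fell and Phc2 rose (0.30, limma adjusted p = 5.54e-04). Of the Trithorax and demethylase genes 10 of 18 were higher and 3 lower in MDA-MB-231 (median 0.32 beside 0.18), led by rises of CTCF, which insulates HOX domains (0.96, limma adjusted p = 9.94e-07), and PSIP1 (1.21, limma adjusted p = 2.42e-06), and by a fall of the H3K4 demethylase gene KDM5B (-1.15, limma adjusted p = 1.32e-05). In CT26 3 of 18 were higher and 5 lower (median -0.05 beside -0.06), close to the shares of all genes, with Kdm6a, an H3K27 demethylase gene, at -0.78 (limma adjusted p = 2.03e-05), Psip1 at -0.22 and Men1 at 0.33.

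Among retinoic acid, CDX and other upstream regulators 2 of 10 tested were higher and 6 lower in MDA-MB-231 (median -0.31 beside 0.18). Of all genes tested there, 42.6% were higher and 25.7% lower. DHRS3, which reduces retinal, averaged 0.0145 ± 0.0289 FPKM in KO and 6.12 ± 0.487 FPKM in WT libraries (SD, n = 4 each; log2 fold change -2.81, limma adjusted p = 2.50e-08). DHRS3 met the filter only through its WT libraries, so it could enter that fit only by being lower in the KO. Without the filter limma's adjusted p was 7.35e-07. CRABP2, which carries retinoic acid (-1.74, limma adjusted p = 5.45e-07), and ALDH1A3, which makes it (-1.85, limma adjusted p = 1.84e-06), also fell. CDX1, CDX2 and CDX4 were at 0 in all 8 libraries. In CT26 3 of 8 were higher and 1 lower (median 0.11 beside -0.06), where 22.3% of all were higher and 33.4% lower. The higher ones were the receptor gene Rarb (1.40, limma adjusted p = 1.89e-05), Klf5 (0.49) and Gdf11 (0.74), whose product helps set posterior HOX expression. Cdx2, which activates posterior HOX genes in mouse and marks colon epithelium, was too low for the filter at 0.876 to 1.04 FPKM in KO and 0.0258 to 0.0630 FPKM in WT libraries. It rose in the fit without the filter (log2 fold change 0.89, limma adjusted p = 5.26e-06), and it is named here after its values were seen.

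Other homeobox genes and the noncoding genes of the clusters were mostly low. In MDA-MB-231 MNX1 was the only tested gene of 18 ParaHox and HOX-linked genes and rose (0.65, limma adjusted p = 8.06e-04). In CT26 Pdx1 fell (-0.53, limma adjusted p = 0.00282) and Dlx1 did not pass, the only tested ones of 18. Of the cluster noncoding genes HAGLR alone was tested in MDA-MB-231, and HOTAIR and HOTAIRM1 were at 0. HOXB-AS3, on the strand opposite HOXB3 to HOXB6, averaged 0.860 ± 0.678 FPKM in KO and 0.0520 ± 0.104 FPKM in WT libraries (SD, n = 4 each), and the groups overlapped (limma adjusted p = 0.0718 without the filter). In CT26 Hotairm1, a noncoding gene of the Hoxa cluster, averaged 30.4 ± 4.30 FPKM in KO and 19.0 ± 3.46 FPKM in WT libraries (log2 fold change 0.66, limma adjusted p = 0.00541). Hoxd3os1 did not pass (0.28, limma adjusted p = 0.0604).

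The 5 nearest tested genes on each side of each cluster did not all move with it, and a count of 4 or 5 higher of 10 in MDA-MB-231 is near the background of 42.6%, with a median of 0.18 over all genes. Of all genes tested there, 25.7% were lower. These flanking genes lay 10 to 1100 kb from the clusters in MDA-MB-231 and 60.7 to 1780 kb in CT26, so many are not close neighbours. Beside HOXC in MDA-MB-231 5 of 10 were higher and 1 lower, with a median log2 fold change of 0.31, and CALCOCO1 fell (-1.27, limma adjusted p = 1.68e-07) while ATP5MC2 (0.90, limma adjusted p = 4.14e-07) and HNRNPA1 (0.68, limma adjusted p = 1.77e-06) rose. Beside HOXD 5 were higher and 0 lower (median 0.40), with HNRNPA3 at 1.32 (limma adjusted p = 3.66e-08), MTX2 at 0.61 and ATP5MC3 at 0.43. Beside HOXB 4 were higher and 4 lower (median 0.13), led by ABI3 (1.43), ATP5MC1 (0.69) and UBE2Z (-0.34). ABI3 met the filter only through its KO libraries, so it could enter that fit only by being higher there. Beside HOXA 4 were higher and 2 lower (median -0.01), led by CBX3 (0.59), HNRNPA2B1 (0.56) and TAX1BP1 (-0.62). In CT26 the counts of higher and lower were 2 and 5 for Hoxa, 0 and 6 for Hoxb, 1 and 1 for Hoxc and 3 and 4 for Hoxd, each of 10, where 22.3% of all genes were higher and 33.4% lower. The genes with the smallest p there were Snx10, Jazf1 and Skap2 beside Hoxa, Nfe2l1, Igf2bp1 and Cbx1 beside Hoxb, Hnrnpa1, Copz1 and Smug1 beside Hoxc and Nfe2l2, Mtx2 and Chn1 beside Hoxd, with log2 fold changes between -0.84 and 0.65.

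Some markers of other cell types moved with the genotype. Among all genes tested 42.6% were higher and 25.7% lower in MDA-MB-231, and 22.3% were higher and 33.4% lower in CT26. In MDA-MB-231 the summed melanocyte and neural list was 131 to 139 FPKM in KO and 41.8 to 48.2 FPKM in WT libraries, with 3 of 4 tested genes higher (TUBB3, MITF and NES) and TYR and SOX2 at 0. Most of that sum was TUBB3, at 104 FPKM in KO and 38.6 FPKM in WT libraries. PMEL, also tested, did not pass (log2 fold change -0.20, limma adjusted p = 0.441). SOX10 and MLANA averaged at or below 0.0313 FPKM in both groups. The luminal list was 551.5 to 575 FPKM in KO and 832 to 847 FPKM in WT libraries, with 1 of 7 tested genes higher (FOXA1) and 6 lower. FOXA1 met the filter only through its KO libraries, so it could enter that fit only by being higher there. Without the filter limma's adjusted p for FOXA1 was 4.36e-06. The basal and mesenchymal list was 2929 to 3099 FPKM in KO and 2315 to 2488 FPKM in WT libraries (2 of 4 tested higher, 2 lower). In it VIM rose, averaging 2545 FPKM in KO and 1113 FPKM in WT libraries, as did ZEB1. CD44 fell (321 FPKM in KO and 1093 FPKM in WT libraries), as did FN1 (116 FPKM in KO and 199 FPKM in WT libraries). The fibroblast and endothelial list was 5.42 to 7.64 FPKM in KO and 13.5 to 18.1 FPKM in WT libraries (0 of 3 higher, 2 lower). The leukocyte list was 78.1 to 93.8 FPKM in KO and 101 to 109.8 FPKM in WT libraries, nearly all of it CD68, with CD3E at 0. In CT26 the colon list was 11.4 to 13.1 FPKM in KO and 2.33 to 2.46 FPKM in WT libraries, most of it Krt20, with Muc2 and Epcam at 0. There the melanocyte and neural list was 29.8 to 31.7 FPKM in KO and 21.9 to 24.3 FPKM in WT libraries (2 of 3 tested higher, Tyr at 0), and the basal and mesenchymal list 4739 to 4829 FPKM in KO and 3979 to 4296 FPKM in WT libraries (2 of 5 higher, 2 lower). The fibroblast and endothelial list was 308.5 to 329 FPKM in KO and 272 to 274.5 FPKM in WT libraries (1 of 4 higher, 2 lower, Cdh5 and Lum at 0), and the leukocyte list 2.75 to 4.39 FPKM in KO and 4.65 to 5.96 FPKM in WT libraries (Cd68 alone tested, and lower, with Cd3e and Itgam at 0). The luminal list overlapped, at 52.6 to 58.1 FPKM in KO and 54.2 to 58.4 FPKM in WT libraries (2 of 4 higher, 1 lower). The part of all these markers in the HOX results was not tested.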

How the data were processed

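The HOX genes and the gene lists were chosen with earlier results of these data known. Per the submitters' processing notes, bcl2fastq 2.18, STAR 2.5.4a, Cufflinks 2.2.1 and Cuffdiff were used with builds hg38 and mm10. No source used here gives the annotation, strand use or settings. For each line there is a deposited table that holds an FPKM value per gene and library, with a p-value and a q-value from the authors for each gene. The tables were normalized separately, so levels were compared within a line only.

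FPKM were analysed as log2(FPKM + 1), which understates the change of low genes, in limma 3.58.1 (R 4.3.3) with a mean-variance trend, the genotype as the only term, two-sided tests and Benjamini-Hochberg adjustment over all genes tested at 0.05. The main fit held genes with at least 1 FPKM in at least 4 of 8 libraries (14450 in MDA-MB-231 and 11341 in CT26), and a fit without the filter held genes above 0 in at least 1 library. Genes that the authors' status column marks as failed (13 and 212, with 0 HOX genes among them) were left out. Without read counts the depth is given relative to a WT library, from the steps between low values. Human positions are from GENCODE 29, and all 58713 human IDs matched. Mouse loci are those of the deposited table, and locus starts were raised by 1 to count from 1. The named HOX genes are those that averaged 1 FPKM or more in either group and passed, up to 12 per line, and the top gene of each cluster; HOXC5, HOXC10 and HOXA13 were judged in the fit without the filter. Of each list and each set of flanking genes up to 3 with the smallest adjusted p were named. The main fit was tested on simulated data drawn from genes that met the filter. The fit without the filter was not tested in this way. The alternatives are given in the closing section. Python 3.11.15 (pandas 2.3.3, numpy 2.4.6) gave the rank correlations, and matplotlib 3.10.9 the plots. A few genes are counted in the totals but are not reported here by name or plotted.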

Additional observations from a re-analysis of the deposited data

Results flagged for a closer look

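In 8 groups of 4 libraries, among HOX genes that averaged 1 FPKM or more in either group, 1 library lay far from the other 3 by Dixon's ratio at its 95% critical value, which chance passes in about 1 of 20 groups. The screen covered both groups of each such gene ID, and the count of 8 was not set against the number that chance would give. In MDA-MB-231 HOXC10 had 0.654 FPKM in KO replicate 4, against 1.76 to 1.86 FPKM in the other KO libraries, and HOXB9 had 4.31 FPKM in WT replicate 1, against 5.03 to 5.06 FPKM in the other WT libraries. In CT26 Hoxa3 had 1.68 FPKM in KO replicate 2. WT replicate 1 of CT26 was the high library for Hoxa5 at 3.99 FPKM, for Hoxa10 at 7.34 FPKM and for Hoxd4 ENSMUSG00000101174 at 3.48 FPKM. WT replicate 3 was high for Hoxa7 at 3.02 FPKM, and WT replicate 4 was low for Hoxa6 at 1.36 FPKM.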

How the results depend on the processing

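Of 442 values recomputed under alternatives, 414 kept their direction and their side of the threshold (or, for counts, stayed within 1.5 times). In MDA-MB-231 HOXB3, HOXC6 and HOXD4 were called higher under each alternative run that held them, except HOXB3 with the replicate block and no filter, and HOXC5, HOXC8 and HOXC10 under each run without the filter. Without the filter the count of higher HOX genes was 10 in place of 3. The further alternatives to the fit without the filter (pseudocount 0.1, upper-quartile scaling, replicate block, a library left out) were chosen after seeing the data. At a filter of 5 FPKM no human HOX gene entered the fit. The count of lower genes was 2 after upper-quartile scaling and 2 after centring on 20 Mb windows (HOXB9 at -0.30 and -0.28, limma adjusted p = 0.0127 and 0.0175), and 0 to 1 when a library was left out, 0 without WT replicate 3. Without the filter it was 3 after upper-quartile scaling and 1 to 2 when a library was left out (HOXB2 without KO replicate 4, HOXD1 without WT replicate 1), and the higher count was 9 to 10. In CT26 without the filter 0 to 1 were lower when a library was left out (Hoxb4 without KO replicate 2, Hoxb3 without WT replicate 4), and Hoxc6 lost its call there without KO replicate 2, WT replicate 1, 3 or 4. With the filter 4 to 6 were higher. HOXD3 changed sign to -0.11 after upper-quartile scaling, to -0.28 after window centring and over -0.10 to 0.19 when a library was left out, never past the threshold. The difference between lines was called for 1 gene at a pseudocount of 0.1 (HOXC6, 2.42, limma adjusted p = 0.00142) and for 2 in the test of any difference, and for HOXB9 it was -0.21 after upper-quartile scaling. The causes were not tested. Upper-quartile scaling set the median log2 fold change of all genes in MDA-MB-231 at -0.01, where it was 0.18 as deposited, and the calls at 4736 higher and 4851 lower, where 6149 and 3711 were called as deposited. In CT26 it set the median at 0.02, where it was -0.06, and the calls at 3313 higher and 2841 lower, where 2534 and 3793 were called.

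Replicate numbers are shared between KO and WT libraries, but same-numbered libraries correlated at only -0.0365 to 0.00442 in MDA-MB-231 and 0.0273 to 0.0779 in CT26, so the number is not taken as a pairing. In CT26 each KO library matched its own number best, a hint from the data alone. With the replicate block, 3 HOX genes were higher and 1 lower in MDA-MB-231 (9 and 1 without the filter) and 4 and 0 in CT26. The shallower MDA-MB-231 KO libraries limit what can be said of HOX genes near 0, and values of 0 there do not show absence.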
